A study of Mus musculus with 8 samples.

Results

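The genes described here are 51 regulators and components of the actin cytoskeleton and of focal adhesions, followed in RNA-seq of costal (rib) chondrocytes from 4 wild-type and 4 *Mir140*-null mice. The members were named by function, out of 52325 gene identifiers per library, and were chosen with earlier results of the genotype contrast in these same libraries known, so their calls describe them and are no independent test. All animals were 7 d old with a C57BL/6J strain background, and the cells were freed from rib cartilage by collagenase digestion. The *Mir140* locus was deleted in zygotes with CRISPR/Cas9, so it is missing from every cell of the null animals and not from chondrocytes alone. Wild-type and null lines were both bred from heterozygous crosses after a backcross from mixed C57BL/6 and CBA/ca founders, so line and genotype cannot be told apart. The values are TPM (a level per transcript length, scaled so that each library sums to 1000000), and libraries are named by genotype and replicate number. The labels do not say which cells came from which animal, and p-values measure the spread between these libraries.

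Actin monomers assemble into polar filaments, and cells steer the process at every step. Profilin, thymosins, cofilin and cyclase-associated protein (CAP) bind monomers or take filaments apart, capping protein closes the fast-growing end, and the Arp2/3 complex starts branches on existing filaments. Small GTPases act above these factors through kinases such as ROCK, PAK and LIMK and through formins, while myosin II pulls on filaments and focal adhesions tie them to integrins and the matrix. In chondrocytes the state of actin is known to bear on the rounded cell shape and on the cartilage phenotype, and monomeric actin holds back the cofactors (MRTF) of the transcription factor SRF, whose targets include actin genes themselves.

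The cells carried the chondrocyte programme in all libraries. The summed level of 12 chondrocyte markers was 66467.5 to 82542.4 TPM in wild-type and 51015.0 to 70444.9 TPM in *Mir140*-null libraries, with *Acan* called higher and *Col9a1*, *Col9a3* and *Hapln1* called lower. Mitochondrially encoded transcripts took 4.057% to 6.985% of wild-type and 8.408% to 10.09% of null TPM, and 17128 to 17950 genes reached 0.5 TPM in wild-type and 15800 to 17435 in null libraries. The *Mir140* entry read 8.86 TPM in 1 library, which carries the label of *Mir140*-null replicate 2, and was listed at 0 in the other 7. The hairpin is far shorter than the fragments of a poly(A) library, so this entry is a weak check and the genotypes rest on the labels. The null libraries 1 and 2 stood apart from 3 and 4 in markers of other cell types: 7 fibroblast and perichondrium markers summed to 489 and 637 TPM there, to 3730.8 and 2945.2 TPM in the other 2 null libraries and to 2214.3 to 4131.0 TPM in wild-type. Some results below are therefore given also without these 2 libraries. The member calls that remained in that fit are named with the counts over all members.

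Most members were abundant and steady in wild-type cells. The members were chosen with the genotype contrast known, which depends on level and wild-type spread, so these properties are not independent of the choice. In the wild-type mean, 20 of the 51 ranked among the 1000 highest genes and 45 reached 10 TPM. *Actb* (β-actin) ranked 15 and *Actg1* (γ-actin) ranked 38 of all genes, *Rhob* ranked 224 and *Tpm3* ranked 440, while *Cap2* at 0.604 TPM was the lowest member. The median coefficient of variation over the 4 wild-type libraries was 12.3% for the members, 20.5% for all 17177 genes tested and 14.7% for the 6756 tested genes at 10 TPM or more. *Pfn1*, *Flna*, *Rhoa*, *Cdc42*, *Arpc4*, *Rhoc* and *Actg1* varied least, between 2.99% and 4.99%, and *Limk1* varied most, at 48.6%.

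Between genotypes more members were not called than called. Most called members were higher in null cells, and the 2 called lower were very abundant. All 51 passed the filter of 0.5 TPM in at least 4 libraries, and in a limma model over all genes 20 were called higher at a Benjamini-Hochberg adjusted p under 0.05, where 10.5% of all genes tested were called higher. Only *Actb* and *Rhob* were called lower, where the background was 6.40%, and 29 members were not called. In 24 members every null library lay above every wild-type library (15.7% of all genes tested), and in 4 members, *Actb*, *Actg1*, *Pfn2* and *Rhob*, every null library lay below (10.2%). The median log2 fold change of the members was 0.33, against -0.0088 for all genes tested and 0.090 for tested genes at 10 TPM or more, and 38 of the 51 fitted values were positive. With median-ratio scaling of the libraries 16 members were called higher and 4 lower, where 7.96% and 7.68% of all genes were. Without null replicates 1 and 2 there remained 6 higher calls (*Cap1*, *Mtpn*, *Actr3*, *Rhoc*, *Rac1* and *Rai14*) and 0 lower calls by limma, with 27 members higher and 3 lower at an unadjusted p under 0.05. All other member calls of the main fit were lost there. In that fit 2.08% of all genes were called higher and 1.22% lower.

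**Figure D1:**
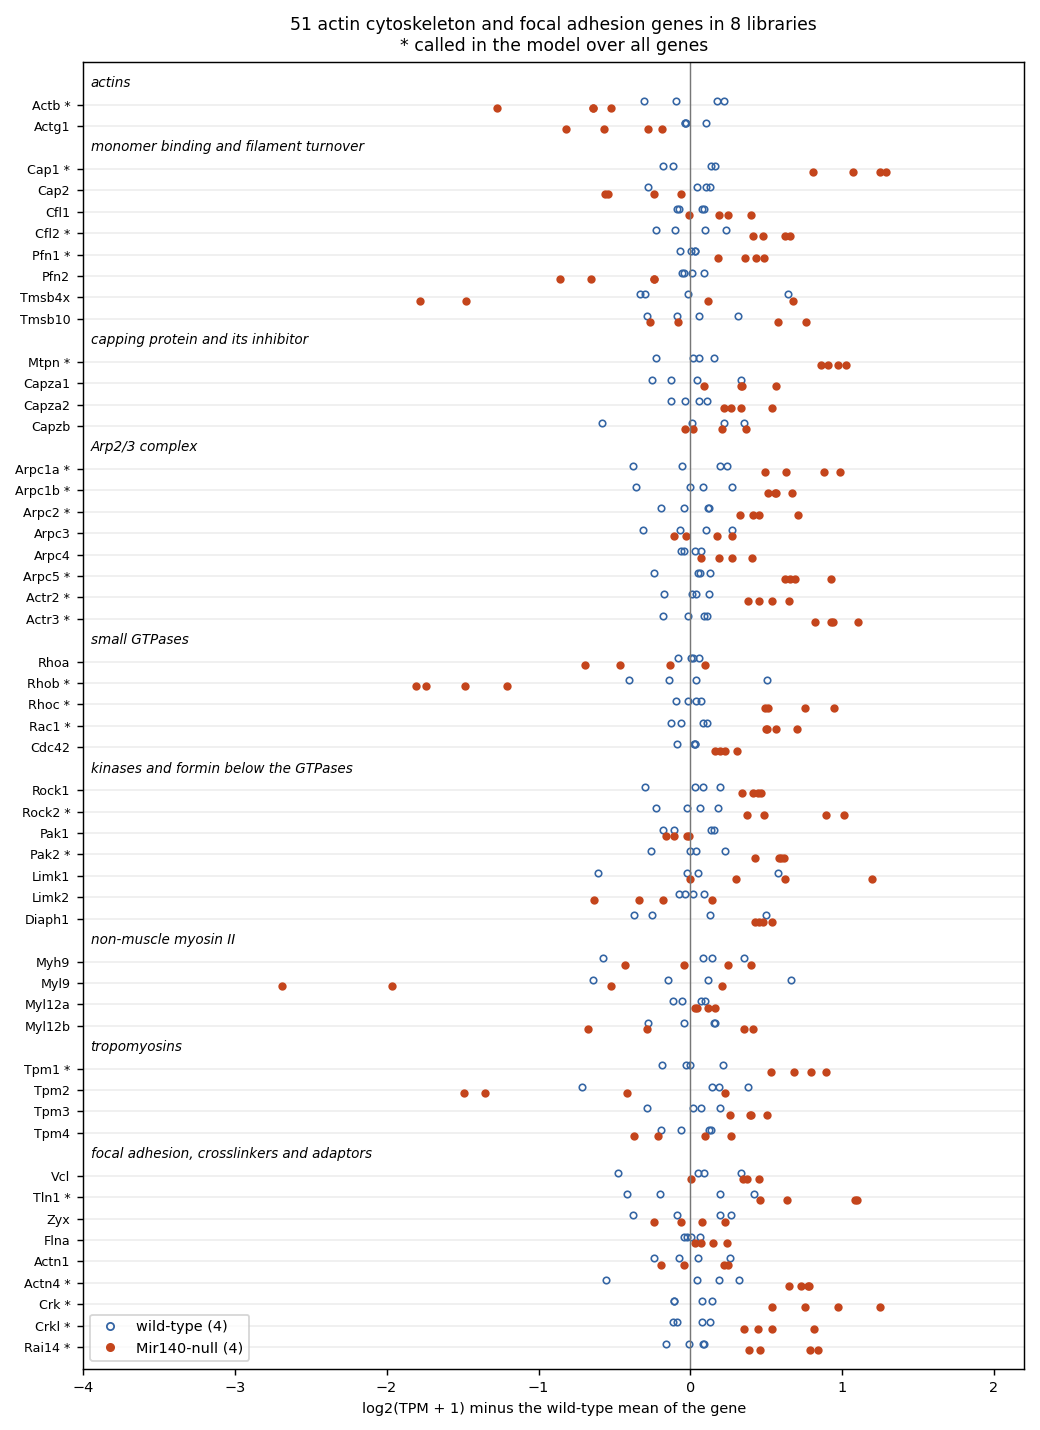
Each row is a member, grouped by role, and each point is a library, placed at its log2(TPM + 1) minus the wild-type mean of that gene (open blue, wild-type; filled red, *Mir140*-null; asterisks mark the 22 called members). Most rows of the Arp2/3 complex and of the adhesion adaptors have all red points to the right of the blue ones, the actins and *Rhob* have them to the left, and *Tmsb4x*, *Myl9* and *Tpm2* have red points spread over both sides.

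Because the 2 actins were so abundant, the sum over all members moved the other way from most of its genes. Members summed to 13294, 16150, 14557 and 16167 TPM in wild-type replicates 1 to 4 and to 9764, 11709, 12973 and 12790 TPM in the null replicates. The actins made up 71% ± 2.37 of that sum in wild-type and 57.2% ± 4.81 in null cells (SD, n = 4 each). Without the actins, the other 49 members summed to 4338.2 ± 144 TPM in wild-type and 5003.8 ± 204 TPM in null libraries, and the groups did not overlap. In bulk RNA, fewer cells of a type and less RNA per cell cannot be told apart.

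**Figure D2:**
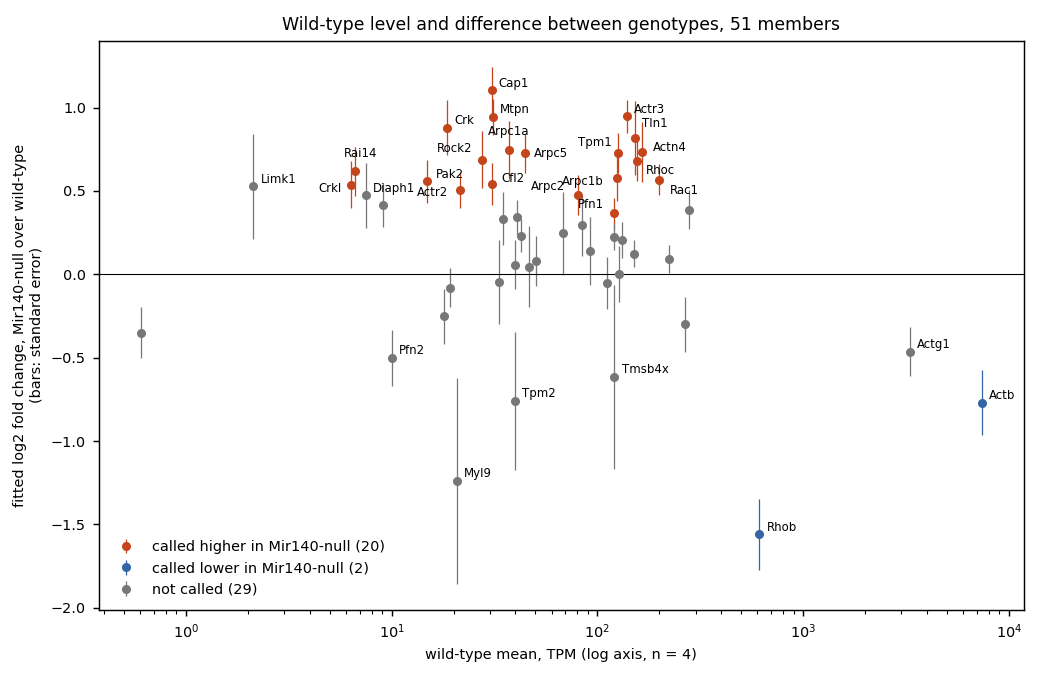
Wild-type mean level (TPM, log axis, n = 4) against the fitted log2 fold change of *Mir140*-null over wild-type for the 51 members, with standard errors as bars. The 20 members called higher had wild-type means between 6.37 and 200 TPM, and the 2 called lower had 613 and 7411.6 TPM.

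Of the 51 members, 12 were on the study's lists of predicted targets of the strands made from *Mir140*, which hold conserved sites. The lists were predicted for human genes and matched here to the mouse members by gene symbol, so a listed gene need not hold the site in mouse. The 2 main forms of miR-140-3p differ by 1 base at the 5′ end, which moves the seed, bases 2 to 8, along by 1. The RefSeq mature strand (GRCm38.p6, chr8:107551288-107551308, plus strand) and the shorter form that starts 1 base later are shown with the seed in capitals because every site below is read from these seeds.
miR-140-3p.2: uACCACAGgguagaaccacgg
miR-140-3p.1: aCCACAGGguagaaccacgg
A seed match for miR-140-3p.1 is CCTGTGG and for miR-140-3p.2 is CTGTGGT in the mRNA, so the matches overlap wherever both occur together. *Cap1*, *Mtpn*, *Rhoc*, *Limk2*, *Crk*, *Crkl* and *Rai14* were predicted for miR-140-3p.1, *Capzb*, *Rhoa* and *Pak2* for miR-140-3p.2, and *Pfn2* and *Myh9* for miR-140-5p. The sites below were read on the sense strand from the longest annotated mouse 3′UTR of each gene (GENCODE M21, mm10), with the bases that pair with the seed in capitals and also the A after them where the mRNA has it opposite base 1.
Cap1, miR-140-3p.1, chr4:122859108-122859130, minus strand: acctgaggCCTGTGGAaataaac
Crk, miR-140-3p.1, chr11:75703788-75703810, plus strand: cagatcaaCCTGTGGAaagctga
Rai14, miR-140-3p.1, chr15:10570255-10570277, minus strand: ccctttctCCTGTGGAtttaaaa
Limk2, miR-140-3p.1, chr11:3345634-3345656, minus strand: ctaggtttCCTGTGGAttgaagg
Mtpn, site 1, miR-140-3p.1, chr6:35512175-35512197, minus strand: atgactctCCTGTGGcctcacac
Mtpn, site 2, miR-140-3p.1, chr6:35510554-35510576, minus strand: ttttttatCCTGTGGctttttca
Pak2, miR-140-3p.2, chr16:32018646-32018668, minus strand: gaaaatccCTGTGGTtggttcag
Rhoa, miR-140-3p.2, chr9:108337316-108337338, plus strand: ttacagttCTGTGGTctcatgtt
Of these genes *Cap1*, *Crk*, *Rai14* and *Limk2* had the longest kind of match, of 8 bases, and *Mtpn* had 2 matches of 7 bases. Among members on no list, *Arpc1a* and *Zyx* also had a match of 8 bases to miR-140-3p.1, and *Pak1* had 1 to miR-140-3p.2. Their fitted log2 fold changes were 0.75, 0.001 and -0.080, and only *Arpc1a* was called. The *Pak2* site also reads as a match to miR-140-3p.1 in the neighbouring frame. *Crkl* had only the weaker kind of match, 6 seed bases followed by an A, at 2 places, and no match of 7 bases was in the longest 3′UTR of *Rhoc* or *Capzb*.

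Among the 7 genes predicted for miR-140-3p.1, 6 were called higher, all but *Limk2*, where 10.5% of all genes tested were called higher. That *Cap1*, *Mtpn*, *Crk*, *Rai14* and *Pak2* were predicted targets was known when the members were chosen. Counts of called targets are therefore not independent of that choice. Of the 3 predicted for miR-140-3p.2, *Pak2* was called higher while *Capzb* and *Rhoa* were not called, and of the 2 predicted for miR-140-5p neither was called (*Myh9* and *Pfn2*, the latter lower in every null library). Most of the higher calls, 13 of 20, were in the 39 members on no list, and so were both lower calls. Over the whole 3′UTRs, a match of 7 bases to the miR-140-3p.1 seed was in 12 of 51 members (23.5%) and in 20.2% of the 12981 tested genes with a 3′UTR, at 0.188 and 0.156 sites per kb. For the miR-140-3p.2 seed it was in 7 members (13.7%) and in 19% of tested genes. Members with either match were called higher in 8 of 16 cases, and members without any in 12 of 35, with the 2 lower calls also among the latter. These counts describe genes chosen for the contrast and carry no test, and a match is not proof of a functional site.

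**Figure D3:**
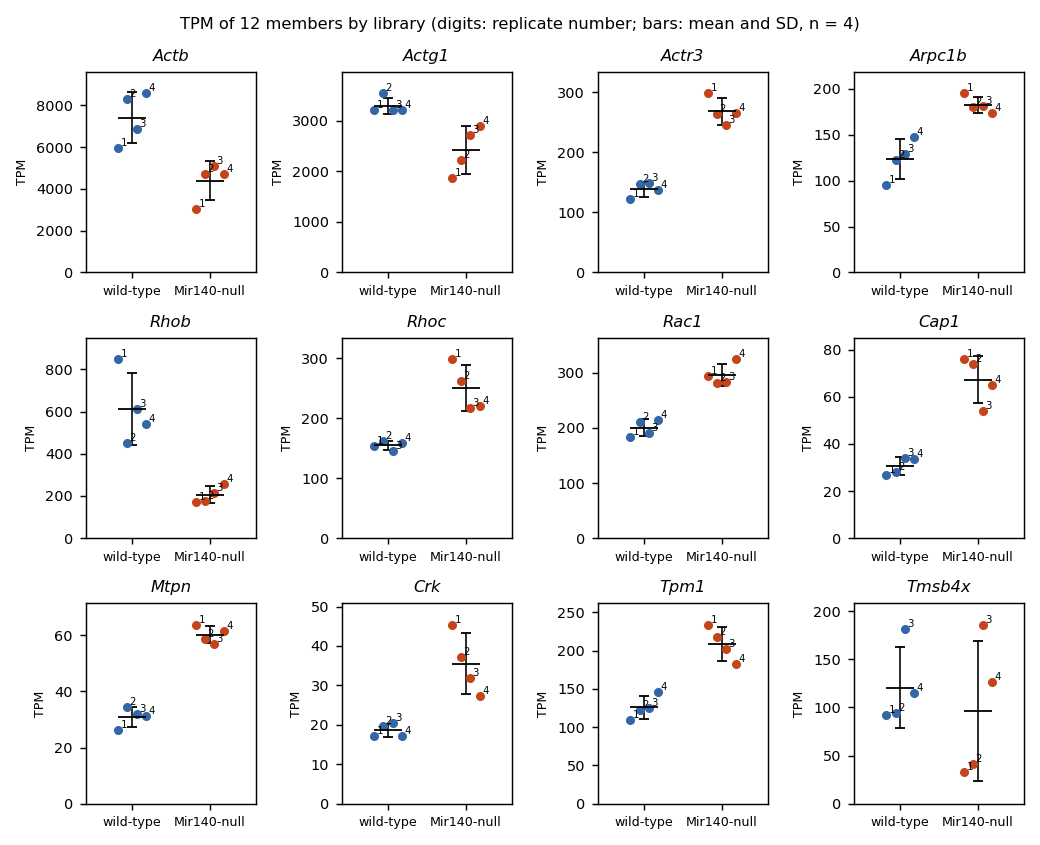
TPM of 12 members by library, with replicate numbers beside the points and the mean and SD of each genotype (n = 4) as bars. *Actr3*, *Arpc1b*, *Rhoc*, *Rac1*, *Cap1*, *Mtpn*, *Crk* and *Tpm1* have separate groups with null above, *Actb*, *Actg1* and *Rhob* have separate groups with null below, and *Tmsb4x* has 2 null libraries below, 1 within and 1 just above the wild-type range.

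The cytoplasmic actins were lower in null cells. *Actb* was at 5940.2, 8281.5, 6861.4 and 8563.3 TPM in wild-type replicates 1 to 4 and at 3026.7, 4704.4, 5108.6 and 4696.5 TPM in null replicates 1 to 4. No null library reached the lowest wild-type library, and the fitted log2 fold change was -0.77 (SE 0.19, limma adjusted p = 0.0329). *Actg1* was at 3208.3, 3538.2, 3204.3 and 3217.9 TPM in wild-type and at 1859.8, 2220.1, 2715.5 and 2891.0 TPM in null libraries. These groups did not overlap either, but the difference of -0.46 missed the threshold (adjusted p = 0.0613). Without null replicates 1 and 2 the *Actg1* difference was -0.23. The share of *Actb* in the summed actins was 69% ± 3.26 in wild-type and 64.3% ± 2.92 in null cells, and the libraries overlapped. Mouse genomes hold many processed copies of both actin genes, and the split of shared reads between them and between the 2 genes is uncertain. The *Actb* call held in 3 of 8 fits that each left out a library, and was lost without wild-type replicate 2, 3 or 4 or null replicate 2 or 4. Its fitted value stayed between -0.87 and -0.58 over all alternatives, and without null replicates 1 and 2 it was -0.58 (adjusted p = 0.109).

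Of 8 proteins that bind monomers or turn filaments over, 3 were called higher and 0 lower by limma, with 2 lower at an unadjusted p under 0.05 (*Pfn2* and *Cap2*). Over all genes tested, 10.5% were called higher and 6.40% lower. *Cap1*, the CAP of most non-muscle cells, which recycles monomers from cofilin, had the largest rise of any member. It was at 26.7, 28.1, 34.2 and 33.5 TPM in wild-type and at 76.0, 73.9, 54.0 and 65.0 TPM in null libraries, so even the lowest null library was well above the highest wild-type library (log2 fold change 1.10, SE 0.14, adjusted p = 0.00596). The site of 8 bases shown above lies near the end of its 3′UTR, at base 1012 of 1087. Its paralog *Cap2*, of muscle and heart, was under 0.75 TPM in every library and made up 1.98% ± 0.749 of the pair in wild-type cells.

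Of the cofilins and of the profilins, 1 gene each was called higher. *Cfl2*, the cofilin best known from muscle, was at 32.7, 25.9, 28.4 and 36.0 TPM in wild-type and 43.0, 48.6, 47.5 and 40.9 TPM in null libraries, without overlap (0.54, SE 0.13, adjusted p = 0.0267). *Cfl1*, the main non-muscle cofilin, had means of 132 ± 8.75 and 153 ± 17.8 TPM with overlapping libraries (adjusted p = 0.218). *Pfn1*, the ubiquitous profilin that loads monomers with ATP, was at 121, 123, 115 and 123 TPM in wild-type and 169, 137, 163 and 155 TPM in null libraries (0.36, SE 0.092, adjusted p = 0.033). *Pfn2*, the neuronal profilin, ran the other way at 9.69, 10.7, 9.6 and 10.1 TPM against 5.07, 5.99, 8.33 and 8.32 TPM, again without overlap, but missed the threshold (adjusted p = 0.0721). Within a library, *Pfn2* thus made up 7.44% to 8.03% of profilin TPM in wild-type and 2.92% to 5.1% in null cells. The call of *Cfl2* held in 4 of 8 fits with a library left out (lost without wild-type replicate 2 or 3 or null replicate 2 or 3) and that of *Pfn1* in 1, without null replicate 2.

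The thymosins, small peptides that hold monomers in reserve, varied widely among the null libraries and were not called. *Tmsb4x* was at 91.8, 94.2, 182 and 115 TPM in wild-type and at 33, 41, 186 and 126 TPM in null libraries. Null replicates 1 and 2 were thus below every wild-type library, replicate 4 was within the wild-type range and replicate 3 just above it, and the fitted value of -0.61 (SE 0.55, adjusted p = 0.466) became 0.40 without the first pair. *Tmsb10* was at 70.3, 55.1, 84.2 and 63.3 TPM against 55.9, 63.8, 115 and 101 TPM and overlapped as well. *Tmsb4x* made up 56.6% to 68.3% of the thymosin sum in wild-type, 37.1% and 39.1% in null replicates 1 and 2, and 61.8% and 55.7% in replicates 3 and 4.

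Myotrophin, an ankyrin-repeat protein that sequesters capping protein, was called higher in null cells, and none of the 3 capping protein subunits was called (limma, 1 of the 3 higher at an unadjusted p under 0.05). *Mtpn* was at 26.2, 34.5, 32.1 and 31.2 TPM in wild-type and at 63.8, 58.8, 56.8 and 61.6 TPM in null libraries (log2 fold change 0.94, SE 0.11, adjusted p = 0.00509). The null libraries varied little among themselves and lay far above the wild-type range, and the call held in all 18 alternatives. The α subunits *Capza1* (34.7 ± 6.52 against 43.7 ± 5.96 TPM) and *Capza2* (40.5 ± 2.96 against 51.6 ± 5.21 TPM) and the β subunit *Capzb* (92.4 ± 23.9 against 99.7 ± 13.2 TPM) were not called, with adjusted p of 0.174, 0.06 and 0.664. *Capza2* was the only subunit whose groups did not overlap. For each 100 TPM of the α subunits a library held 40, 48.9, 40.6 and 36.5 TPM of *Mtpn* in wild-type and 67.3, 59.7, 66.5 and 60.1 TPM in null cells, a ratio that scaling between libraries does not touch.

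The Arp2/3 complex was the role in which most members were called: 6 of its 8 subunits higher and 0 lower by limma, also 0 lower at an unadjusted p under 0.05. Of all genes tested, 10.5% were called higher and 6.40% lower. Without null replicates 1 and 2 only *Actr3* was still called, where 2.08% of all genes were called higher. At an unadjusted p under 0.05, 6 subunits were higher in that fit. There *Arpc5*, *Actr2*, *Arpc2*, *Arpc1a* and *Arpc1b* had fitted values of 0.66, 0.50, 0.43, 0.69 and 0.54 (limma adjusted p = 0.0559, 0.0801, 0.105, 0.126 and 0.139). *Actr3*, an actin-related subunit at the branch, was at 122, 147, 149 and 137 TPM in wild-type and at 298, 264, 245 and 266 TPM in null libraries. The groups lay far apart (log2 fold change 0.95, SE 0.10, adjusted p = 0.00402), and the call held in all 18 alternatives. Its partner *Actr2* was lower in level and also rose, from 18.9, 23.5, 21.7 and 22.1 TPM to 34.2, 28.3, 29.8 and 31.6 TPM (0.51, adjusted p = 0.0207). *Arpc5*, a small peripheral subunit, was at 37.3, 46.1, 45.8 and 48.3 TPM against 84.9, 70.3, 71.7 and 68.7 TPM (0.73, adjusted p = 0.00984).

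The alternative subunits *Arpc1a* and *Arpc1b* both rose. *Arpc1a* was at 28, 35.3, 42.2 and 43.7 TPM against 57.3, 73.8, 68.6 and 52.1 TPM (0.75, adjusted p = 0.0261), and *Arpc1b* at 95, 122, 129 and 148 TPM against 195, 180, 181 and 174 TPM (0.58, adjusted p = 0.0274). *Arpc1b* kept 75.4% to 77.5% of the pair in wild-type and 70.9% to 77.3% in null cells. The 2 genes are neighbours on chromosome 5, 5453 bases apart on the same strand. *Arpc2*, which docks the complex to the mother filament, was called at 80.6 ± 8.39 against 112 ± 13.4 TPM (0.47, adjusted p = 0.0327), while *Arpc3* at 50.5 ± 8.74 against 53.1 ± 6.68 TPM and *Arpc4* at 42.5 ± 1.88 against 50.3 ± 5 TPM were not called (adjusted p = 0.747 and 0.144). The *Arpc2* call was lost in each of the 8 fits that left out a library, and *Arpc1a* (without wild-type replicate 2 or null replicate 2 or 3), *Arpc1b* (without wild-type replicate 2 or 3 or null replicate 1 or 2) and *Actr2* (without wild-type replicate 3 or 4) lost theirs in some, with 0.305 (*Arpc2*) the lowest fitted value of these genes in any alternative.

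The make-up of the complex by mRNA differed between genotypes. *Actr3* held 27%, 26.6%, 26.3% and 23.4% of the complex's TPM in wild-type and 33%, 32.5%, 29.9% and 33% in null libraries, without overlap. *Arpc5* held 8.06% to 8.36% in wild-type and 8.54% to 9.39% in null libraries, also without overlap. On the lower side *Arpc3* held 8.64% to 10.7% and 5.11% to 7.41%, and *Arpc4* 7.28% to 8.99% and 5.5% to 6.29%, also without overlap. The complex as a whole summed to 539 ± 59.6 TPM in wild-type and 834 ± 46.8 TPM in null cells, a ratio of 1.55. Set against the actins of the same library, it came to 4.94, 4.66, 5.64 and 4.97 TPM for each 100 TPM of actin in wild-type and to 18.5, 11.7, 10.5 and 10.6 TPM in null cells.

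The small GTPases differed among themselves. *Rhob*, an immediate-early member of the family that sits on endosomes, was at 849, 451, 612 and 541 TPM in wild-type and at 170, 178, 213 and 258 TPM in null libraries. This was the largest fall of any member (log2 fold change -1.56, SE 0.21, adjusted p = 0.00663), with the groups far apart. *Rhoc*, which is tied to cell migration, was at 153, 162, 145 and 159 TPM against 299, 262, 218 and 221 TPM (0.68, SE 0.12, adjusted p = 0.0121), with null replicates 1 and 2 the highest. *Rhoa*, the best studied of the 3, was at 277, 267, 252 and 270 TPM against 193, 164, 243 and 285 TPM, and overlapped (adjusted p = 0.241). Its fitted value of -0.30 was -0.019 without null replicates 1 and 2.

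Within each library the family was thus made up differently. *Rhob* held 66.4%, 51.2%, 60.6% and 55.8% of the 3 genes' TPM in wild-type and 25.7%, 29.4%, 31.6% and 33.7% in null cells, and *Rhoc* 12%, 18.4%, 14.4% and 16.3% against 45.2%, 43.4%, 32.3% and 29%. Neither pair of ranges overlapped, and the share of *Rhoa* did overlap. *Rac1*, which drives branched networks at the leading edge, was at 183, 211, 191 and 215 TPM against 295, 282, 283 and 325 TPM (0.57, SE 0.093, adjusted p = 0.0101). *Cdc42*, the polarity GTPase, lay higher in every null library at 121 ± 5.01 against 142 ± 6.14 TPM without passing the test (adjusted p = 0.0843). The calls of *Rhoc* and *Rac1* held in all 18 alternatives and that of *Rhob* in 17, with an adjusted p of 0.0518 without null replicates 1 and 2.

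**Figure D4:**
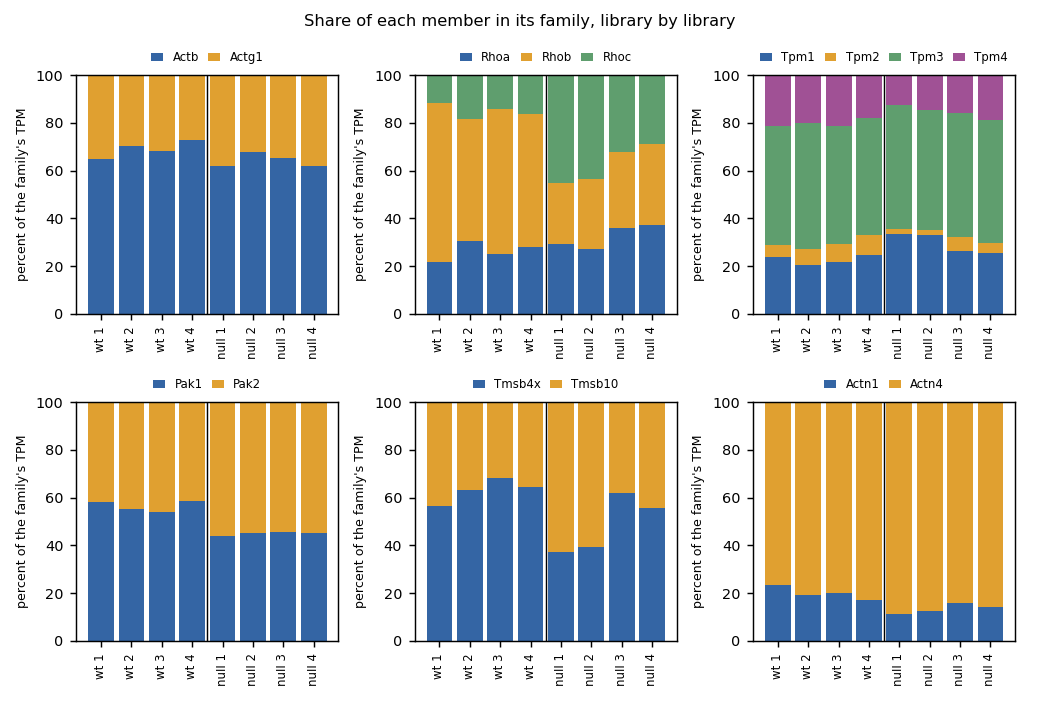
Stacked bars give the share of each gene in the summed TPM of its family (percent) in each library, wild-type left and *Mir140*-null right of the line. The *Rhob* share drops from between 51.2% and 66.4% to between 25.7% and 33.7%, the *Pak1* and *Pak2* shares trade places, and the *Tmsb4x* and *Tpm2* shares are lowest in null replicates 1 and 2.

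Among 7 kinases and formins downstream of the GTPases, *Rock2* and *Pak2* were called higher and 0 lower by limma, also 0 lower at an unadjusted p under 0.05. The shares over all genes tested were 10.5% higher and 6.40% lower. *Rock2*, a kinase that activates myosin II, was at 23.2, 31.1, 28.5 and 26.9 TPM in wild-type and 51.5, 55.9, 35.6 and 38.5 TPM in null libraries (0.69, SE 0.17, adjusted p = 0.0311). Its value was higher in null replicates 1 and 2 than in 3 and 4, and it fell to 0.43 without the former (adjusted p = 0.134). *Rock1* was lower in level, at 9.05 ± 1.4 against 12.3 ± 0.494 TPM, without overlap (adjusted p = 0.0624). *Pak2*, the ubiquitous p21-activated kinase, was at 12.1, 17.4, 15.1 and 14.7 TPM against 22.6, 23.1, 20.1 and 22.8 TPM (0.56, SE 0.13, adjusted p = 0.0248).

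*Pak1*, the paralog of *Pak2*, was at 19.2 ± 2.33 against 18 ± 0.924 TPM (adjusted p = 0.658). As a result the order of the paralogs turned: *Pak2* held 41.3% to 46.1% of the pair in wild-type and 54.3% to 56.2% in null cells. The LIM kinases, which switch cofilin off, were not called, with *Limk1* at 2.13 ± 1.04 against 3.54 ± 1.68 TPM and *Limk2* at 18 ± 0.931 against 15.2 ± 3.65 TPM. *Limk2*, with its site of 8 bases, was the only predicted miR-140-3p.1 target with a negative fitted value (-0.25, adjusted p = 0.317). Without null replicates 1 and 2 the *Limk2* value was -0.018. The formin *Diaph1* was at 5.39, 8.03, 10.7 and 5.93 TPM against 10.5, 10.1, 10.3 and 11 TPM and overlapped by wild-type replicate 3 alone (adjusted p = 0.129). Leaving out wild-type replicate 3 or 4 or null replicate 1 or 2 ended the calls of both *Rock2* and *Pak2*, as did wild-type replicate 1 for the former and null replicate 4 for the latter.

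Non-muscle myosin II showed no call among its 4 genes (limma, 0 of 4 also at an unadjusted p under 0.05). The heavy chain *Myh9* was at 46.6 ± 11.8 against 48 ± 11.8 TPM and the light chain *Myl12a* at 222 ± 15.3 against 236 ± 10.3 TPM. *Myl9*, the light chain of smooth muscle and stromal cells, was at 17.6, 21.3, 31.6 and 12.2 TPM in wild-type and at 4.27, 2.19, 22.8 and 13.3 TPM in null libraries, so that null replicates 1 and 2 were below every other library (fitted value -1.24, SE 0.62, adjusted p = 0.197). Without these 2 libraries the fitted value of *Myl9* was -0.155. *Myl12b* was at 36.8, 26.9, 36.7 and 31.9 TPM against 20.2, 26.8, 44 and 42.2 TPM, with the same 2 libraries lowest. *Myl12a* and *Myl12b* are near-identical neighbours on chromosome 17, 2765 bases apart, and the split of reads between them is uncertain.

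Tropomyosins, coiled coils along the filament that select which motors and cofilins bind, differed within the family. *Tpm1* was at 110, 123, 125 and 146 TPM in wild-type and 234, 218, 202 and 182 TPM in null libraries, without overlap (0.73, SE 0.12, adjusted p = 0.0102). It was called in all 8 fits that left out a library and in 16 of 18 alternatives. The *Tpm1* call was lost without null replicates 1 and 2 (0.61, limma adjusted p = 0.0649) and with the replicate number as a block (adjusted p = 0.0518). *Tpm3* was at 280 ± 38 against 364 ± 25.9 TPM, also without overlap but not called (adjusted p = 0.0575). *Tpm4* was at 112 ± 12.2 against 110 ± 22 TPM. *Tpm2* was at 22.9, 42.1, 43.6 and 50 TPM against 14.3, 12.9, 44.8 and 28.3 TPM, lowest in null replicates 1 and 2 (fitted value -0.76, adjusted p = 0.232). Without these 2 libraries the *Tpm2* value was -0.095.

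Null replicates 1 and 2, the lowest libraries for *Tmsb4x*, *Myl9* and *Tpm2*, were also the lowest for the markers of most other cell types searched. Erythroid, endothelial, leukocyte and osteoblast marker sums were 432 and 256, 3.98 and 5.26, 18.6 and 17.5, and 4.15 and 3.83 TPM there. The lowest sums elsewhere were 646, 6.02, 23.5 and 7.81 TPM. Skeletal muscle markers differed, at 34 and 57.4 TPM against 53.5 TPM in null replicate 4. The 6 smooth muscle and pericyte markers summed to 96.4 to 141 TPM in wild-type and to 21.9, 18.9, 95.3 and 51.7 TPM in null replicates 1 to 4, 3 of the 6 being called lower. The 7 fibroblast and perichondrium markers, whose sums are given above, had 1 call, *Pdgfra* higher, and the defining *Col1a1* was at 47.8 and 50.1 TPM in null replicates 1 and 2 but at 1326.5 and 898 TPM in 3 and 4. No marker of either list was under 0.5 TPM in every library. The part of these cells in the values of *Tmsb4x*, *Myl9* and *Tpm2* was not tested. *Actr3*, *Mtpn* and *Cap1* were called without null replicates 1 and 2 as well, with fitted values of 0.88, 0.92 and 0.94.

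**Figure D5:**
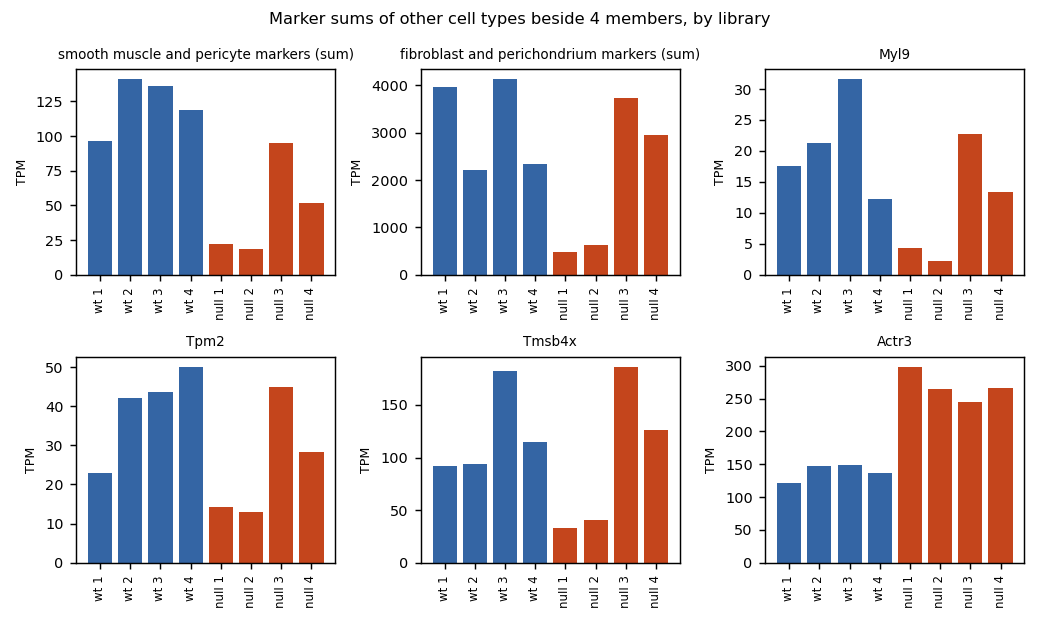
Bars give TPM in each library (blue, wild-type; red, *Mir140*-null) for the summed smooth muscle and pericyte markers, the summed fibroblast and perichondrium markers, and *Myl9*, *Tpm2*, *Tmsb4x* and *Actr3*. Null replicates 1 and 2 are the lowest bars in every panel but that of *Actr3*, where all 4 null bars stand above the wild-type bars.

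Of the 9 adhesion proteins, crosslinkers and adaptors, 5 were called higher and 0 lower by limma, also 0 lower at an unadjusted p under 0.05. Among all genes tested, 10.5% were called higher and 6.40% lower. *Tln1* (talin), which links integrins to actin and activates them, was at 111, 170, 199 and 129 TPM in wild-type and 231, 318, 204 and 316 TPM in null libraries (0.82, SE 0.22, adjusted p = 0.0412), with null replicate 3 close to wild-type replicate 3. *Actn4*, a crosslinking α-actinin, was at 109, 201, 166 and 183 TPM against 277, 267, 253 and 276 TPM (0.73, SE 0.18, adjusted p = 0.0309). Its paralog *Actn1* was at 39.8 ± 5.96 against 41.5 ± 6.11 TPM, and its share of the pair went from 17% to 23.4% in wild-type down to 11.1% to 15.7% in null cells without overlap. The structural proteins vinculin (*Vcl*, 84.6 ± 18.7 against 103 ± 13.4 TPM), zyxin (*Zyx*, 128 ± 25.3 against 127 ± 17.2 TPM) and filamin A (*Flna*, 151 ± 4.85 against 165 ± 10.9 TPM) were not called.

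The adaptors *Crk* and *Crkl*, which pass signals from adhesions to the Rac pathway, and *Rai14* were the remaining calls. *Crk* was at 17.1, 19.6, 20.5 and 17.1 TPM in wild-type and at 45.4, 37.3, 32 and 27.3 TPM in null libraries (0.88, SE 0.16, adjusted p = 0.014), and was called in 17 of 18 alternatives. The *Crk* call was lost without null replicates 1 and 2 (0.65, limma adjusted p = 0.0599). *Crkl*, its close relative, was at 5.78, 7.02, 6.76 and 5.9 TPM against 11.9, 9.66, 8.39 and 9.01 TPM (0.54, SE 0.14, adjusted p = 0.0351). *Rai14*, an ankyrin-repeat protein of actin bundles, was at 5.8, 7.08, 7.04 and 6.54 TPM against 9.44, 8.92, 12.6 and 12.1 TPM (0.62, SE 0.15, adjusted p = 0.0272). All 3 were predicted miR-140-3p.1 targets with separate groups, and *Rai14* was the only one of them higher in null replicates 3 and 4 than in 1 and 2. Other calls of this role rested on few libraries: *Crkl* kept its call only without null replicate 3, *Tln1* only without wild-type replicate 3 or null replicate 3, *Actn4* in 3 of 8 fits (lost without wild-type replicate 3 or 4 or null replicate 1, 2 or 4) and *Rai14* in 3 of 8 (lost without wild-type replicate 1, 3 or 4 or null replicate 3 or 4), with fitted values of at least 0.40 throughout.

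A list of 122 other actin and adhesion genes also held more higher than lower calls. Of the 113 tested, 25 were called higher and 4 lower, against 10.5% and 6.40% of all genes tested, with a median log2 fold change of 0.12. The largest rises were those of the nucleator *Spire1*, at 15.4, 31.1, 23.1 and 27.5 TPM against 80.4, 84.1, 55.6 and 60.2 TPM (1.51, SE 0.23, adjusted p = 0.00862), of *Rnd1*, a GTPase that opposes RhoA (134 ± 18.9 against 337 ± 96 TPM, 1.29), and of *Rhog*, which acts above Rac (17.8 ± 1.03 against 39.7 ± 9.79 TPM, 1.08). The largest falls were those of *Tln2*, the second talin (3.37 ± 1 against 1.44 ± 0.482 TPM, -0.83), *Coro1a*, the coronin of blood cells (1.5 ± 0.481 against 0.468 ± 0.426 TPM, -0.79) and *Pak3* (6.19 ± 0.558 against 3.99 ± 0.833 TPM, -0.54), and the remaining lower call, named after its values were seen, was *Abi2*. The 6 markers of leukocytes, cells in which *Coro1a* is abundant, summed to 23.5 to 41.6 TPM in wild-type and 17.5 to 31.7 TPM in null libraries with 2 called lower, and *Ptprc* was at most 0.59 TPM. Most of each sum was *Cd68*, at 20 to 37 and 16 to 29.4 TPM. *Lyz2* (0.881 to 1.51 against 0.0455 to 0.617 TPM) and *Itgam* (1.79 to 2.67 against 0.673 to 1.33 TPM) did not overlap. *Cd68*, *Csf1r*, *Ptprc* and *Adgre1* did. The part of leukocytes in the fall of *Coro1a* was not tested. Without null replicates 1 and 2 the list had 2 higher calls and 0 lower (limma, 32 and 4 at an unadjusted p under 0.05), which for the higher calls is no more than the 2.08% of all genes in that fit. The calls of *Spire1*, *Rnd1* and *Rhog* held in 17, 18 and 18 of 18 alternatives, those of *Tln2* and *Coro1a* in 8 and 5 of 17 and that of *Pak3* in 4 of 18.

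Genes known to respond to SRF and MRTF, with the factors themselves, held more lower than higher calls. Of 20 on the list 19 were tested, 2 were called higher and 5 lower, where 10.5% and 6.40% of all genes tested were, so that the higher calls are at the background, with a median of -0.40, the reverse in sign of the members' median. *Cnn1* (calponin) was at 11.7, 14.8, 13 and 16.7 TPM in wild-type and 1.09, 1.82, 5.04 and 3.21 TPM in null libraries (-2.09, SE 0.32, adjusted p = 0.00839), and this call held in all 18 alternatives. *Acta2*, the smooth muscle actin, was at 35.1, 41.5, 30.3 and 30.7 TPM against 6.15, 3.93, 18.1 and 10 TPM (-1.92, adjusted p = 0.0166), and *Tagln* at 60.5 ± 14.3 against 23.7 ± 17.4 TPM (-1.52, adjusted p = 0.0473). These 3 genes are also the smooth muscle markers called lower, whose sums by library are given above, and the part of such cells in their fall was not tested. The other 2 lower calls, named after their values were seen, were *Cnn2* and *Srf* itself. *Ccn2* (connective tissue growth factor) and *Synpo2* were the 2 higher calls, at 170 ± 20.7 against 247 ± 13.9 TPM (0.55, adjusted p = 0.018) and 2.18 ± 0.258 against 4.85 ± 2.01 TPM (0.82, adjusted p = 0.0457). The *Acta2* and *Ccn2* calls held in 16 and 15 of 18 alternatives, that of *Tagln* in 6 of 18 and that of *Synpo2* in 8 of 17. Without null replicates 1 and 2 the list had 1 higher and 1 lower call and a median of -0.046.

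SRF binds a sequence of 10 bases named the CArG box, and promoters of the members were searched for it on both strands over 250 bases before to 50 after each RefSeq start (GRCm38.p6). Promoters were searched for 46 of the 51 members, 55 starts in all and not those of *Actb*, *Rac1*, *Pak2*, *Rock1* and *Diaph1*, and 4 of these (7.27%) held a box, against 1.63% of all 32851 promoters, 1.31% of those of tested genes and 23.8% of the 21 promoters of the SRF and MRTF list. The box is in capitals in the stretches below, which are shown because they include both the actin *Actg1* and *Myl9*.
Actg1, chr11:120348566-120348595, minus strand: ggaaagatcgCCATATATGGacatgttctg
Myl9, chr2:156775293-156775322, plus strand: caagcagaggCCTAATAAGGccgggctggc
Vcl, chr14:20929161-20929190, plus strand: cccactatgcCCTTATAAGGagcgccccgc
Arpc4, chr6:113377863-113377882, plus strand: CCTAATTTGGtgcccaacct
The boxes began at positions -90, -161, -227 and -250 from the start, the last at the edge of the window. None of the 4 genes was called, and their fitted values were of both signs: -0.46 for *Actg1*, -1.24 for *Myl9*, 0.29 for *Vcl* and 0.23 for *Arpc4*. A match of this kind is a description of the letters and not a site.

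A few members share a neighbourhood in the genome as well as a role. Besides the *Arpc1a* and *Myl12a* pairs, *Tpm2* and *Tln1* lie 7753 bases apart on chromosome 4 on the same strand, and *Rhoc* and *Capza1* lie 28319 bases apart on chromosome 3 on opposite strands. In the former pair *Tln1* was called higher and *Tpm2* was not called at -0.76, and in the latter *Rhoc* was called higher and *Capza1* was not called at 0.33.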

How the data were processed

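RNA of rib chondrocytes was sequenced in 8 libraries, grouped by the labelled genotype. The authors deposited TPM per gene and library, made with Salmon from stranded single-end poly(A) reads and the mm10 transcriptome, with FastQC 0.11.7 in the submitters' processing notes. Salmon's version is not given in the sources used here. The deposited TPM hold no scaling between libraries and none of the study's batch factors. Since TPM keep no depth, only the minimum read number that the paper states for every sample is known. No counting interval was computed. Identifiers on several lines were counted once (540 lines dropped per library). Symbols and 3′UTRs came from GENCODE M21.

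Genes reaching 0.5 TPM in 4 or more libraries were fitted with limma 3.58.1 in R 4.3.3 on log2(TPM + 1), with genotype as the only term and a mean-variance trend, two-sided, with Benjamini-Hochberg adjustment over all 17177 genes. Fold changes on this scale understate those of low genes. The fit was tested on simulated data. Shares, sums and figures used Python 3.11.15, NumPy 2.4.6, pandas 2.3.3 and matplotlib 3.10.9. Members and gene lists were chosen with earlier results of these data known. All members were named, and of the other lists the called genes that moved furthest, 3 for each direction. Predicted targets are the study's lists from the human version of TargetScan, matched to mouse genes by symbol and used for membership only.

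The alternatives were a pseudocount of 0.1, no filter, a mean of at least 5 TPM, median-ratio and quantile scaling, TPM without mitochondrially encoded genes, the replicate number as a block, 1 factor of unwanted variation from residuals (singular value decomposition, not the RUVSeq package), sample weights, and leaving out each library. Leaving out both null replicates 1 and 2 was added after seeing the data.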

Additional observations from a re-analysis of the deposited data

Results flagged for a closer look

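Among 102 groups of 4 libraries, 2 values stood apart from the rest of their group by Dixon's test, where chance alone gives about 5.1. *Actg1* was at 3538.2 TPM in wild-type replicate 2, against 3204.3 to 3217.9 TPM in the other 3 wild-type libraries. The gap was wide only beside their narrow spread, and this library lies on the side away from the null libraries. *Pak2* was at 20.1 TPM in *Mir140*-null replicate 3, against 22.6 to 23.1 TPM in the other 3 null libraries and 17.4 TPM in the highest wild-type library.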

How the results depend on the processing

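The values are TPM, so the number of libraries sets the precision and the depth of each library cannot be read from them. The cause of a change below was not tested, while fewer libraries or more genes tested can by themselves lower a count. The 20 members called higher became 11 with no filter, 6 without null replicates 1 and 2, and 10 to 15 with a library left out: 13 without wild-type replicate 2 or null replicate 4, 12 without null replicate 1, 11 without wild-type replicate 4 or null replicate 2, and 10 without wild-type replicate 3. The 2 called lower became 1 with no filter, 4 with median-ratio scaling, 7 with 1 factor from residuals, 0 without null replicates 1 and 2 (3 at an unadjusted p under 0.05 by limma), and 1 to 2 with a library left out, with 1 without wild-type replicate 2, 3 or 4 or null replicate 2. The members' median of 0.334 was 0.157 with quantile normalization and positive in every alternative. Of the 22 member calls, 16, 14, 11 and 12 held without wild-type replicates 1 to 4 and 14, 12, 17 and 14 without null replicates 1 to 4.

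Same-numbered libraries did not deviate together (correlations of 0.031, 0.016, 0.069 and -0.009). This gave no sign of pairing by number but cannot exclude it, since null replicates 1 and 2 stood apart from the other null libraries. With the number as a replicate block all the same, 6 members were called higher and 2 lower, and all 8 were among the 22. The other actin and adhesion genes then had 14 and 1 calls, and the SRF and MRTF genes 0 and 1 (3 higher at an unadjusted p under 0.05).

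Of the other actin and adhesion genes, the 25 called higher became 13 with no filter, 2 without null replicates 1 and 2 and 12 to 20 with a library left out, with 16 without wild-type replicate 1, 15 without null replicate 1 or 4, 14 without wild-type replicate 4 or null replicate 2 and 12 without wild-type replicate 3. The 4 lower became 0 with no filter (14 at an unadjusted p), 2 with a mean of at least 5 TPM, without mitochondrially encoded genes or with sample weights, 8 with median-ratio scaling, 15 with 1 factor, 0 without null replicates 1 and 2 (4 at an unadjusted p), and 0 to 5 with a library left out: 0 without wild-type replicate 2 or 4 (11 at an unadjusted p each) or null replicate 1 (9), and 1 without wild-type replicate 1 or 3 or null replicate 2. Of the SRF and MRTF genes, the 2 higher became 1 with no filter, a mean of at least 5 TPM, or without null replicates 1 and 2, and 0 to 2 with a library left out (0 without null replicate 2, 3 at an unadjusted p). The 5 lower became 3 with a pseudocount of 0.1 or without mitochondrially encoded genes, 2 with no filter, 9 with 1 factor, 1 without null replicates 1 and 2, and 2 to 5 with a library left out, with 5 kept in number only without null replicate 3.

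Sign changes touched 10 uncalled members. With quantile normalization the log2 fold changes were -0.025 for *Capzb* and *Flna*, -0.089 for *Arpc3*, -0.099 for *Myh9*, -0.007 for *Myl12a*, -0.156 for *Zyx* and -0.096 for *Actn1*, and median-ratio scaling gave -0.021 for *Zyx*. *Myl12b* was at 0.010 and *Tpm4* at 0.006 without mitochondrially encoded genes, and at 0.127 and 0.016 with sample weights. Without null replicates 1 and 2, *Tmsb4x* was at 0.401, *Myl12b* at 0.383, *Tpm4* at 0.186 and *Zyx* at -0.081. With a library left out, the values ran from -0.053 to 0.256 for *Capzb*, -0.025 to 0.170 for *Arpc3*, -0.147 to 0.203 for *Myh9*, -0.199 to 0.162 for *Myl12b*, -0.158 to 0.054 for *Tpm4*, -0.126 to 0.090 for *Zyx* and -0.021 to 0.144 for *Actn1*. No called member changed sign in any alternative.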
